A study of Mus musculus with 5 samples.

Results

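Collagen genes were followed in Dicer-null mouse embryonic fibroblasts (MEFs) in which TARBP2 was depleted with small interfering RNA (siRNA). The members are the genes whose symbol on the array platform is Col, a number, a and a number, which gave 37 genes with 59 probes out of 16593 named genes and 25697 probes. Of these, 21 collagen genes had a probe above background on at least 2 arrays and were measured, beside 8927 measured genes in all. The measured collagens were 7 fibrillar chains, 5 type IV chains of basement membranes, 2 type VI chains, 2 fibril-associated chains, 2 transmembrane chains and 1 chain each of types VII, X and XVIII.

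All cells were C57BL/6 MEFs null for Dicer, whose product dices double-stranded RNA and hairpin precursors, so the controls lack it as well. Cells were transfected with Lipofectamine reagent and siTARBP2-1 (1 array), siTARBP2-2 (1 array) or control siRNA (3 arrays, siControl-1 to siControl-3), and total RNA was taken 48 hours later and hybridised to Illumina BeadChips with 1 colour. The series' design text names a pair of independent siRNAs, mock transfection and a metastatic line. The sample labels name neither of the last and were followed; they number the TARBP2 arrays as replicates 1 and 2, as they number the controls, and do not themselves say that siTARBP2-1 and siTARBP2-2 are different siRNAs. Separate cultures behind the arrays are stated nowhere in the labels, so p-values measure only the spread between these arrays, which may be technical.

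Collagens are trimers of chains wound into a triple helix. Fibroblasts secrete the fibrillar types I, III and V as procollagens, which are trimmed, assembled into fibrils and cross-linked; type IV forms the sheet of basement membranes, type VI beaded filaments, and type XVIII sits in basement membranes and yields endostatin. Type X is known as the collagen of hypertrophic cartilage.

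TARBP2 siRNA lowered Tarbp2, probe ILMN_2939990, to 28.7% of control with siTARBP2-1 and to 20.4% with siTARBP2-2. Over both together it was 24.2% (limma, adjusted p = 0.041). The second kept probe, ILMN_2649955, had 37.6% and 20.9%, and 28% over both (limma, adjusted p = 0.103). Both probes were higher with siTARBP2-1 than with siTARBP2-2, by 0.49 and 0.85 on the log2 scale. The part of this unequal knockdown in the collagen results was not tested. Raw array medians were 79 to 81.9, and each array had between 12445 and 13051 probes over background. The number for siTARBP2-2, 12701, came from detection p-values averaged over the other 4 arrays, so it is no separate measure of that array. The siRNA arrays stood apart from each other: of 17 measured genes on a list of interferon response genes, 15 were higher and 0 lower with siTARBP2-1 (median log2 change 1.49), and 0 were higher and 3 lower with siTARBP2-2 (median -0.45). The part of that difference in any collagen result was not tested. Of 10 fibroblast markers on the array, 9 were above background on every array, Col1a1 among them, and Thy1 was not above background on any. Without its collagens, the summed linear level of the fibroblast list was 5493 to 5902 across the controls, with 5826 on the siTARBP2-1 array and 5364 on the siTARBP2-2 array. Vim made most of that sum, with changes of 0.115 and -0.034, so the sum says little of the other markers. Over the 9 measured markers, collagens included, the median log2 change was -0.38 with siTARBP2-1, with 8 of 9 negative, and -0.03 with siTARBP2-2. The 5 smooth muscle markers on the array, of which Acta2 and Des were kept, summed to 1513 to 1844 on control arrays. They summed to 1333 with siTARBP2-1 and 1075 with siTARBP2-2, so the siRNA arrays were below the controls. The 2 kept markers went opposite ways, with log2 changes of -0.36 and 0.01 with siTARBP2-1 and of -0.70 and 0.13 with siTARBP2-2. The part of this in the collagen results was not tested. None of the 6 endothelial markers was kept, with 0 or 1 above background on an array, and 1 of 4 leukocyte markers was (Cd14), with Ptprc, Adgre1 and Lyz2 not above background on any array. Cd14 had -0.46 with siTARBP2-1 and 0.33 with siTARBP2-2 and differed between them by -0.79 (limma, adjusted p = 0.0232), and the leukocyte list summed to 310 to 331 on the controls, 252 and 388. The 5 epithelial markers on the array summed to 330 to 350 on the controls and to 371 with siTARBP2-1 and 383 with siTARBP2-2, above every control. Of the 4 measured, 3 had positive and 1 negative changes with siTARBP2-1, and 2 positive and 2 negative with siTARBP2-2. The median log2 changes of these markers were 0.056 and 0.005. Krt18, with the largest change of the list on the siTARBP2-2 array, had 0.10 and 1.08. The part of these markers in the collagen results was not tested. In such bulk samples fewer cells of a type and less RNA per cell cannot be told apart.

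Over both siRNAs together, the 1 comparison with replicate arrays on both sides (2 against 3), 0 of the 21 measured collagens passed the test, and 3 had an unadjusted p under 0.05 (limma). The calls that follow each rest on 1 array of an siRNA and have no replicate of it. On the siTARBP2-1 array, 4 collagens passed the test: Col10a1 and Col18a1 rose, and Col1a1 and Col3a1 fell. On the siTARBP2-2 array 1 did: Col1a1 fell. Set against each other, 1 array against 1, the siRNA arrays differed in Col10a1 and Col3a1. Calls are limma adjusted p-values under 0.05, adjusted by Benjamini-Hochberg across the 13123 kept probes. Over all measured genes the share called was 7.65% with siTARBP2-1 (3.88% higher and 3.78% lower), 4.27% with siTARBP2-2 (1.75% higher and 2.52% lower), 7.08% between the siRNAs (3.73% higher and 3.35% lower) and 0.0112% over both together. An unadjusted p under 0.05 was reached by 7 collagens with siTARBP2-1, beside 24.7% of all genes, by 2 with siTARBP2-2, beside 22.9%, by 3 between the siRNAs, beside 25.4%, and by the 3 over both together, beside 12.9%. The members were not tested as a list. Their median log2 change was -0.04 with siTARBP2-1, beside -0.01 over all genes, and -0.09 with siTARBP2-2, beside 0.02 over all genes. In the fit of each siRNA the spread comes from the 3 control arrays alone, and each lone siRNA array is assumed to vary like them. Over the kept probes the SD of the log2 difference was 0.387 between the siRNA arrays and 0.173 to 0.212 between control arrays. If the siRNA arrays are replicates, as the labels number them, the p-values of these single-array fits are too small. Both siRNAs are compared with the same control arrays, so their changes are given side by side and not correlated.

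**Figure D1:**
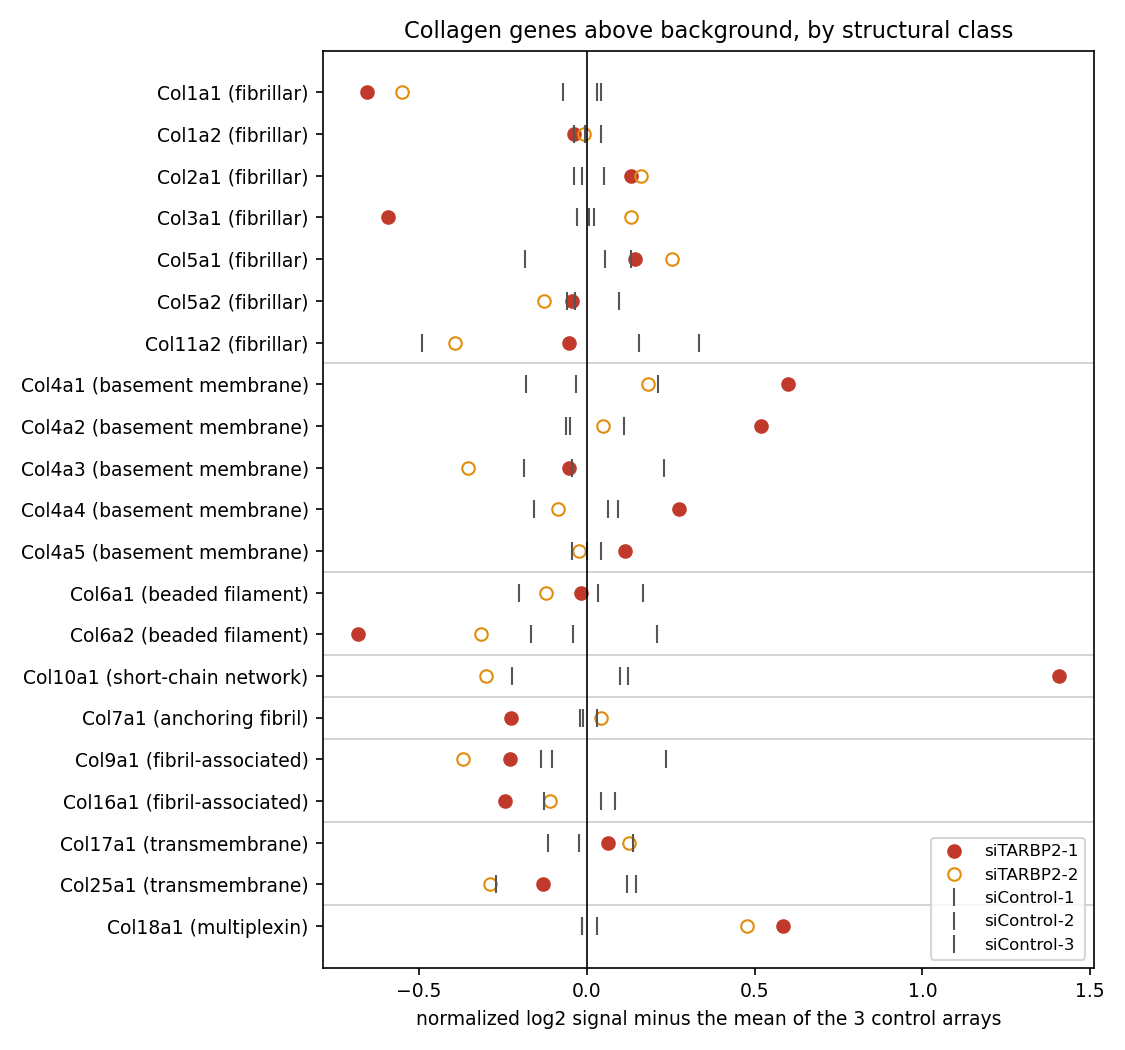
Normalized log2 signal of the 21 measured collagen genes on each array minus the mean of the 3 control arrays (horizontal axis), grouped by structural class (rows); filled circles are siTARBP2-1, open circles siTARBP2-2 and vertical ticks the control arrays. Col10a1 stands out to the right with siTARBP2-1 only (1.41), Col1a1 lies left of the controls and Col18a1 right of them with both siRNAs.

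Col1a1, the alpha 1 chain of type I collagen, was lower on both siRNA arrays. Probe ILMN_2687872 had raw signals of 1973.1, 1937.6 and 1691.7 on the controls, 1080.5 with siTARBP2-1 and 1314.0 with siTARBP2-2. After normalization the log2 signals were 10.84, 10.82 and 10.72 for the controls, 10.14 with siTARBP2-1 and 10.24 with siTARBP2-2. Both siRNA arrays thus lay below all 3 controls. The change was -0.65 with siTARBP2-1, or 63.5% of control (SE 0.11; limma, adjusted p = 0.0213), and -0.55 with siTARBP2-2, or 68.2% (SE 0.11; limma, adjusted p = 0.0489). Between the siRNAs Col1a1 differed by -0.10 (SE 0.14; limma, adjusted p = 0.692). Over both together the change was -0.60 (SE 0.11, n = 2 and 3; limma, adjusted p = 0.135). The siTARBP2-1 call ended without siControl-2 (limma, adjusted p = 0.0784). The siTARBP2-2 call ended without siControl-2 (limma, adjusted p = 0.154) or siControl-3 (0.0637), with no filter on dim probes (0.0711) and with median scaling (0.0769); the change stayed between -0.59 and -0.51.

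Col1a2 encodes the alpha 2 chain, the partner of Col1a1 in the same trimer. Its log2 signals were 8.79, 8.84 and 8.76 on the controls, 8.76 with siTARBP2-1 and 8.79 with siTARBP2-2. The siRNA arrays lay among the controls. The log2 change was -0.04 with siTARBP2-1 (95% interval -0.30 to 0.22) and -0.01 with siTARBP2-2 (-0.27 to 0.25), and neither passed the test (limma, adjusted p = 0.874 and 0.976). The difference in change between Col1a1 and Col1a2 was not tested.

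Col3a1, the single chain of the homotrimeric type III collagen that mixes with type I in fibrils, was lower with siTARBP2-1 only. Raw signals of probe ILMN_1258629 were 460.3, 450.9 and 412.0 on the controls, 283.2 with siTARBP2-1 and 485.3 with siTARBP2-2. The normalized log2 signals were 8.60, 8.59 and 8.55 on the controls, 7.99 with siTARBP2-1 and 8.71 with siTARBP2-2, which was above all 3 controls. Col3a1 fell to 66.3% of control with siTARBP2-1 (log2 change -0.59, SE 0.11; limma, adjusted p = 0.0244). With siTARBP2-2 the change was 0.13 (SE 0.11; limma, adjusted p = 0.52). The difference between the siRNAs was -0.72 (SE 0.13; limma, adjusted p = 0.0258). Both calls ended without siControl-2 (limma, adjusted p = 0.0875 against control and 0.0711 between the siRNAs), with changes of -0.59 and -0.72. Other fibroblast markers were lower on the siTARBP2-1 array as well: Pdgfra, a growth factor receptor, fell with it (-0.79; limma, adjusted p = 0.0211), had 0.32 with siTARBP2-2 and differed between the arrays by -1.104 (limma, adjusted p = 0.0156). S100a4, Pdgfrb and Prrx1 had -0.44, -0.38 and -0.33 with siTARBP2-1 and did not pass. Vim, the 1 positive of the 9 measured markers, had 0.115. The part of these markers in the Col1a1 and Col3a1 values was not tested. A second Col3a1 probe, ILMN_2683958, was not above background on any array.

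Other fibrillar chains did not pass the test. Col5a1, a type V chain that sets fibril diameter, had log2 signals of 12.12, 12.35 and 12.43 on the controls, 12.44 with siTARBP2-1 and 12.56 with siTARBP2-2, so both siRNA arrays lay above the controls but next to siControl-3. Its change was 0.14 with siTARBP2-1 and 0.25 with siTARBP2-2 (limma, adjusted p = 0.602 and 0.357); with median scaling the first was -0.00. Col5a2, its partner chain, had -0.04 and -0.13. Col2a1, the cartilage type II chain, had 0.13 and 0.16, at raw signals of 80.9 to 86.7, close to the dimmest probes counted as detected. Col11a2, a chain of the cartilage type XI, was above background on 3 arrays and had log2 signals of 4.76, 5.59 and 5.41 on the controls, 5.20 with siTARBP2-1 and 4.86 with siTARBP2-2. The controls spanned the siRNA arrays, and the changes were -0.05 and -0.39. Without siControl-1, the lowest control, the siTARBP2-2 change was -0.62 and passed the test (limma, adjusted p = 0.042).

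**Figure D2:**
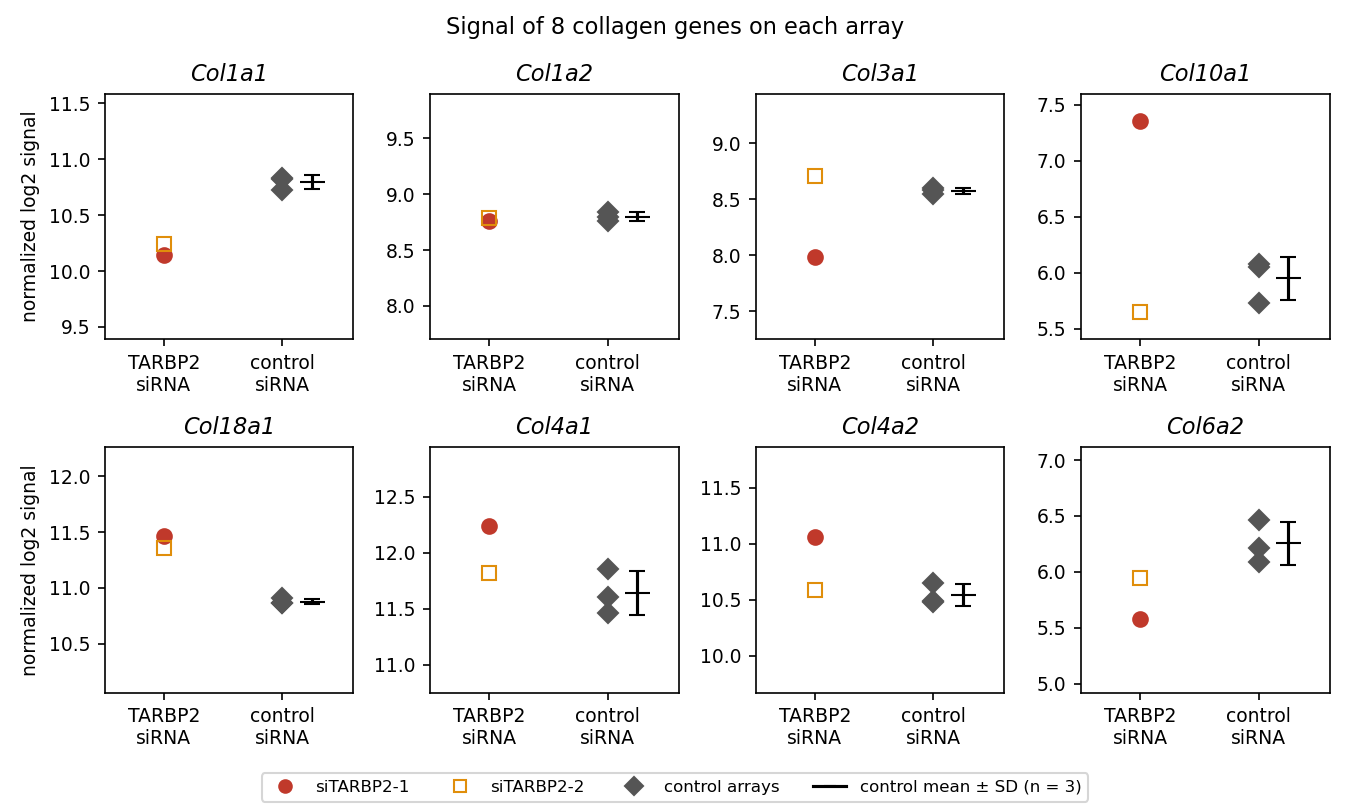
Normalized log2 signal (vertical axis, each panel spanning the same number of log2 units) of 8 collagen genes on the 2 TARBP2 siRNA arrays and the 3 control arrays, with the control mean ± SD (n = 3) as a bar. Col1a1 is below and Col18a1 above the controls on both siRNA arrays, Col3a1 (7.99) and Col10a1 (7.36) leave the controls with siTARBP2-1, and Col1a2 stays at 8.76 to 8.84 on all arrays.

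Col10a1, the chain of the short network-forming type X, had the largest change among the 21 on the siTARBP2-1 array and between the siRNA arrays; on the siTARBP2-2 array and over both, that of Col1a1 was larger. Raw signals of its 1 probe, ILMN_2675388, were 106.8, 121.3 and 117.1 on the controls, 203.7 with siTARBP2-1 and 102.9 with siTARBP2-2. The normalized log2 signals were 5.73, 6.05 and 6.07 on the controls, 7.36 with siTARBP2-1 and 5.65 with siTARBP2-2. The siTARBP2-1 array was far above the controls, and the siTARBP2-2 array just below the lowest of them. With siTARBP2-1 Col10a1 rose 2.65-fold (log2 change 1.41, SE 0.16; limma, adjusted p = 0.00538). With siTARBP2-2 the change was -0.30 (SE 0.16; limma, adjusted p = 0.319), and the siRNAs differed by 1.71 (SE 0.20; limma, adjusted p = 0.00663). Both calls held under every alternative run, with adjusted p of at most 0.0259 and 0.0322. The size depended on the background correction: the rise was 0.92 without one and 0.93 with the series matrix values. The 6 chondrocyte markers summed to a linear level of 186 to 196 on the controls, 184 with siTARBP2-1 and 228 with siTARBP2-2. Of these 6 markers, Acan, Matn1 and Matn3 were not above background on any array, and Sox9, the transcription factor of cartilage, had -0.27 with siTARBP2-1 and 0.55 with siTARBP2-2. Comp, a cartilage matrix protein, had 0.24 and 0.22, and Col2a1 0.13 and 0.16; none of the 3 passed against control. The osteoblast markers Bglap, Bglap2, Dmp1, Ibsp and Sp7 were not above background on any array.

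Col18a1, a multiplexin of basement membranes, was higher on both siRNA arrays. Raw signals of probe ILMN_2735184 were 2014.2, 1992.1 and 1906.4 on the controls, 2637.4 with siTARBP2-1 and 2758.3 with siTARBP2-2. Log2 signals were 10.86, 10.87 and 10.91 on the controls, 11.46 with siTARBP2-1 and 11.35 with siTARBP2-2. Both siRNA arrays lay above all controls. Col18a1 rose 1.5-fold with siTARBP2-1 (log2 change 0.59, SE 0.11; limma, adjusted p = 0.0254), a call that ended with median scaling (adjusted p = 0.0729) and without siControl-2 (0.0913). With siTARBP2-2 the change was 0.47 (SE 0.11) and did not pass the test (limma, adjusted p = 0.0623); it passed with no background correction (0.008), with normexp and an offset of 50 (0.0078), with the series matrix values (0.00849) and for probes detected on all 5 arrays (0.04). The dimmer probe ILMN_2937542 had 0.50 with siTARBP2-1 and 0.24 with siTARBP2-2 (limma, adjusted p = 0.0984 and 0.38). One further probe, ILMN_1225839, was not above background on any array.

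The type IV chains Col4a1 and Col4a2, which form the common basement membrane trimer, were above all controls with siTARBP2-1. Col4a1 had log2 signals of 11.85, 11.46 and 11.61 on the controls, 12.24 with siTARBP2-1 and 11.82 with siTARBP2-2. Col4a2 had 10.49, 10.65 and 10.48 on the controls, 11.06 with siTARBP2-1 and 10.59 with siTARBP2-2. On the siTARBP2-2 array both genes lay inside the range of the controls. The changes with siTARBP2-1 were 0.60 for Col4a1 (SE 0.16; limma, adjusted p = 0.076) and 0.52 for Col4a2 (SE 0.12; limma, adjusted p = 0.053), and neither passed the test. Both passed it with no background correction (limma, adjusted p = 0.0119 and 0.00668), with normexp and an offset of 50 and with the series matrix values, with changes of 0.50 to 0.59; Col4a1 also passed without siControl-1 (0.0206). Between the siRNAs the differences were 0.42 and 0.47 (limma, adjusted p = 0.244 and 0.111), and that of Col4a2 passed with no background correction (0.03). The X-linked chain Col4a5 had 0.11 with siTARBP2-1 and -0.02 with siTARBP2-2. Col4a3 and Col4a4, chains of the specialised kidney basement membrane, were dim and above background on 4 arrays each. Their changes were -0.05 and 0.27 with siTARBP2-1 and -0.35 and -0.09 with siTARBP2-2, and none passed the test. On the siTARBP2-2 array Col4a3 was not above background.

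Among the remaining classes, Col6a2, a type VI chain, had log2 signals of 6.09, 6.46 and 6.21 on the controls, 5.58 with siTARBP2-1 and 5.94 with siTARBP2-2. Both siRNA arrays lay below the controls. The change with siTARBP2-1 was -0.68 (SE 0.16; limma, adjusted p = 0.0504) and the call was made under 7 other settings, for example for probes detected on all 5 arrays (0.0324) and without siControl-1 (0.0256). With no background correction the size was -0.37. With siTARBP2-2 it was -0.31 (limma, adjusted p = 0.297). Its neighbour and trimer partner Col6a1 had -0.02 and -0.12 for probe ILMN_2768087, and 0.00 and -0.05 for ILMN_1259388.

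Col7a1, the anchoring fibril chain, had log2 signals of 8.13, 8.09 and 8.08 on the controls, 7.88 with siTARBP2-1 and 8.14 with siTARBP2-2 (probe ILMN_2901944). Its change with siTARBP2-1 was -0.23 (limma, adjusted p = 0.257), and a second, dim probe had 0.08. Col9a1, a fibril-associated cartilage chain, was above background on the 3 control arrays and on neither siRNA array, at log2 signals of 4.97, 4.94 and 5.31 against 4.85 with siTARBP2-1 and 4.71 with siTARBP2-2. The changes of Col9a1 were -0.23 with siTARBP2-1 and -0.37 with siTARBP2-2, and neither passed the test. Its raw signals were 76 to 91.3, near background, so the size of a fall cannot be given. Col16a1, another fibril-associated chain, had -0.24 and -0.11. The transmembrane chains Col17a1 and Col25a1 were each above background on 2 arrays and had changes of 0.06 and -0.13 with siTARBP2-1 and of 0.13 and -0.29 with siTARBP2-2.

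**Figure D3:**
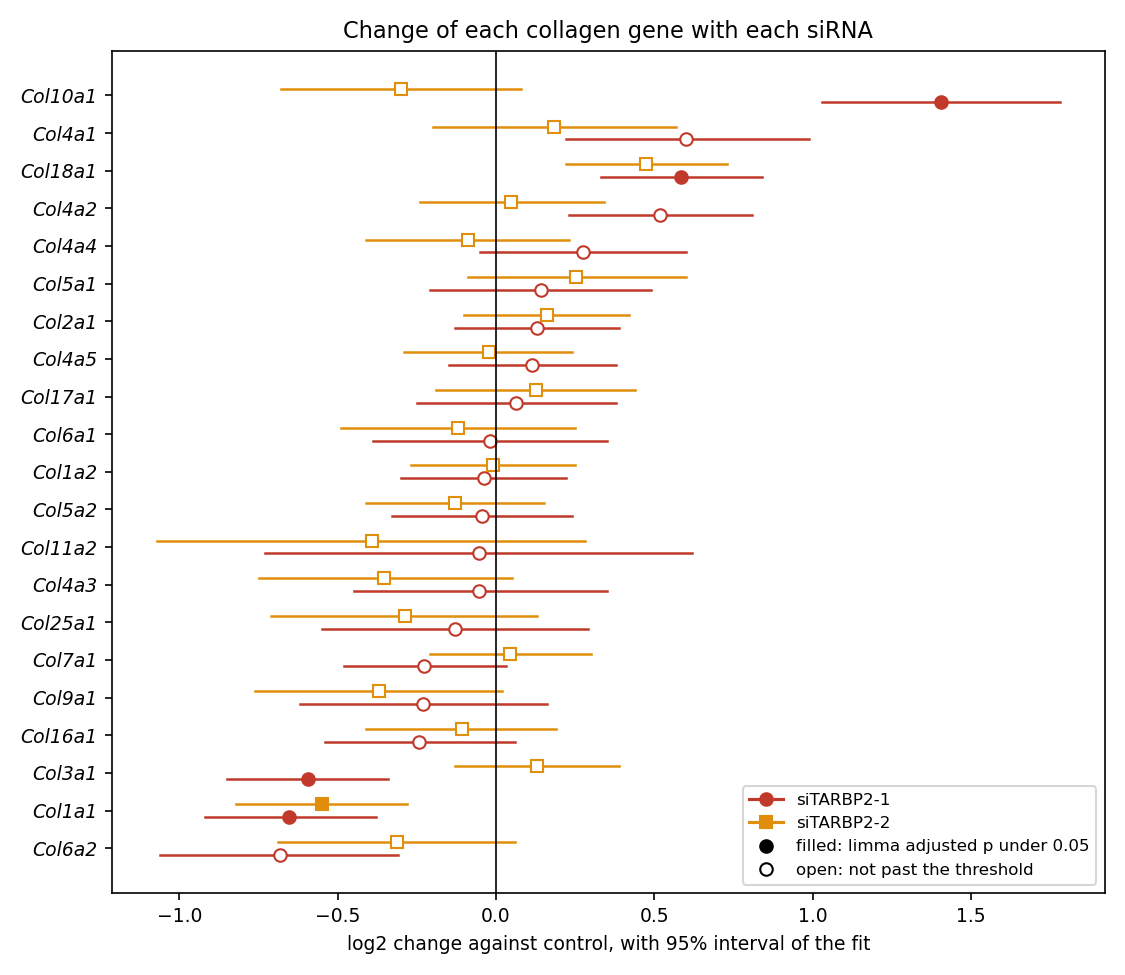
Log2 change against the 3 control arrays (horizontal axis) of the 21 measured collagen genes with siTARBP2-1 (circles) and siTARBP2-2 (squares), with the 95% interval of the limma fit; filled symbols have an adjusted p under 0.05. Filled symbols are Col10a1, Col18a1, Col3a1 and Col1a1 with siTARBP2-1 and Col1a1 with siTARBP2-2, and the interval of Col10a1 with siTARBP2-1 (1.03 to 1.78) does not meet that with siTARBP2-2 (-0.68 to 0.08).

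Both siRNA arrays lay on the same side of all 3 controls for 6 of the 21 collagens, below for Col1a1, Col6a2 and Col9a1 and above for Col2a1, Col5a1 and Col18a1. Over all genes the share was 31.3%, with 16.2% above and 15.1% below, so the members' count was near the background. Col9a1 passed the filter through its control arrays only, so its place below them was partly set by the filter. Probe ILMN_2759144 of Col2a1 lay below all controls on both siRNA arrays, and ILMN_2706692 of Col9a1 above them. Neither of these probes was above background on any array. The 16 collagens with no kept probe were Col4a6, Col5a3, Col6a6, Col8a2, Col9a2, Col9a3, Col11a1, Col13a1, Col14a1, Col15a1, Col19a1, Col23a1, Col24a1, Col26a1, Col27a1 and Col28a1. They include both the type XV partner of Col18a1 among the multiplexins and the fibrillar chains of types XXIV and XXVII. Of these, Col24a1 had 1 probe above background on 1 array and the other 15 had none. Of the 38 collagen accessions in the authors' deposited table, 5 were marked as higher, beside 8.67% of all accessions there; they were those of Col4a1 (0.39), Col4a2 (0.27), Col10a1 (0.25), Col18a1 (0.21) and Col5a1 (0.20), with the log2 fold change from the authors' deposited table. For Col1a1 the authors' deposited table gave -0.57. Its values come from the same arrays.

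The promoters of the changed genes and of the Col4a1 and Col4a2 pair are shown because these members moved, or lay together, on the siTARBP2-1 array. RefSeq (GRCm38.p6) gave a window of 250 bases before to 50 after the gene start for 30 of the 37 members, 17 of them measured; Col1a1 had no entry. Sequences run 5′ to 3′ on the gene's strand, and capitals mark matches on either strand to 5 motifs: the TATA box with letters TATAAA, the CCAAT box with letters CCAAT, the GC box with letters GGGCGG, the AP-1 element with letters TGANTCA and the core of the interferon-stimulated response element.
Col10a1, chr10:34389731-34390030, plus strand: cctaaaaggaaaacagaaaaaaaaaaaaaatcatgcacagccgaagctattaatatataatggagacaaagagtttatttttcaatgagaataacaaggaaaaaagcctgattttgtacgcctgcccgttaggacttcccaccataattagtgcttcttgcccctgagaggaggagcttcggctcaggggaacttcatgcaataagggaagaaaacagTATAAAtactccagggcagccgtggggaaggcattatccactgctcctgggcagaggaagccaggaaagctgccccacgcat
Col3a1, chr1:45311288-45311587, plus strand: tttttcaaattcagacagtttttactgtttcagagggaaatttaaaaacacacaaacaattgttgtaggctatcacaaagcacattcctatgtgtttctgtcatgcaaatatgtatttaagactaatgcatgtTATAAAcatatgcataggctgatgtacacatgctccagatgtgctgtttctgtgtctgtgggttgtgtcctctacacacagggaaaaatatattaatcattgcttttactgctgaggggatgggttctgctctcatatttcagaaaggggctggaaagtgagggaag
Col18a1, chr10:77166481-77166780, minus strand, the upstream of 2 annotated starts: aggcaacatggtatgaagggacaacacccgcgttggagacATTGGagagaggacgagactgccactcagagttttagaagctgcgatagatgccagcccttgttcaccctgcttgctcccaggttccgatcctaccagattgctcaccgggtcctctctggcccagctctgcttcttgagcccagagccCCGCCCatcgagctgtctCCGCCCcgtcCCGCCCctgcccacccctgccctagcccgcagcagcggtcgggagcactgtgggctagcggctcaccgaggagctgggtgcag
Col4a2, chr8:11312555-11312854, plus strand: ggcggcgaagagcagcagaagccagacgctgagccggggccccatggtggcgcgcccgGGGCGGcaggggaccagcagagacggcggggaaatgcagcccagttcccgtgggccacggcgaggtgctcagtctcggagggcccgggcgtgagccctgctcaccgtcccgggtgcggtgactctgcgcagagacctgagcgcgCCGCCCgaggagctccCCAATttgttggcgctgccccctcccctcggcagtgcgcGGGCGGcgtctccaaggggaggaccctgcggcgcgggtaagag

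The Col10a1 window held a TATAAA match at position -32 relative to the gene start, and the Col3a1 window a TATAAA match at -117. The printed Col18a1 and Col4a2 windows held GC boxes and CCAAT matches and no TATAAA. The window of the other Col18a1 start, chr10:77113656-77113955, held no match to any of the 5 motifs. The annotated start of Col4a1 lies 21 bases from that of Col4a2 on the opposite strand, so the Col4a2 window also holds the start of Col4a1. Over the 20 windows of measured members, 4 held a TATA box, 10 a CCAAT box, 12 a GC box, 1 an AP-1 element and 0 the interferon-stimulated core. Of all 32851 windows of 300 bases, 13.6% held a TATA box, 37.4% a CCAAT box, 35.7% a GC box, 7.8% an AP-1 element and 3.4% the interferon-stimulated core. Such matches describe the letters in these windows only.

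Genes that fold, trim, assemble, break down or sense collagen were described by lists. Of 20 measured folding and processing genes, 1 rose and 0 fell with siTARBP2-1, and 0 rose and 1 fell with siTARBP2-2. P3h3, of the prolyl 3-hydroxylase family, had log2 signals of 5.89, 5.58 and 5.89 on the controls, 6.71 with siTARBP2-1 and 5.99 with siTARBP2-2, both above the controls. It rose by 0.92 with siTARBP2-1 (SE 0.16; limma, adjusted p = 0.0188), and by less in size with no background correction (0.54). Fkbp14, a prolyl isomerase of the endoplasmic reticulum, fell with siTARBP2-2 (-0.61, SE 0.11; limma, adjusted p = 0.0388), a call that ended without siControl-2 (adjusted p = 0.114) or siControl-3 (0.0656). The list's median change was -0.08 with siTARBP2-1 and -0.05 with siTARBP2-2. Serpinh1, the collagen chaperone HSP47, had 0.16 and -0.35, and P4ha1, a prolyl 4-hydroxylase subunit, -0.04 and -0.49, none of which passed. With no filter on dim probes, which tests more probes, calls of P3h3, Fkbp14, Pcolce2, Tnxb (siTARBP2-2), Thbs2, Ctsl and Sox9 ended, with limma adjusted p of 0.0506 to 0.1.

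Of 11 measured genes of procollagen cleavage and cross-linking, 0 changed with siTARBP2-1, and 1 rose and 1 fell with siTARBP2-2 (medians -0.01 and -0.13). Lox, the lysyl oxidase that starts cross-links, had log2 signals of 13.25, 13.30 and 13.25 on the controls, 12.87 with siTARBP2-1 and 12.48 with siTARBP2-2, so both siRNA arrays lay below the controls. Lox fell with siTARBP2-2 (-0.79, SE 0.11; limma, adjusted p = 0.0209), a call that ended without siControl-2 (0.0824), and had -0.39 with siTARBP2-1 (0.0817), which passed under 4 alternatives (0.0138 to 0.0456). Pcolce2, an enhancer of procollagen C-proteinase, had 10.34, 10.25 and 10.35 on the controls, 10.07 with siTARBP2-1 and 10.92 with siTARBP2-2. The siRNA arrays lay on opposite sides of the controls. Pcolce2 rose with siTARBP2-2 (0.60, SE 0.11; limma, adjusted p = 0.0398) and differed between the siRNAs by -0.85 (limma, adjusted p = 0.0189); the rise did not pass without siControl-2 (0.128) or siControl-3 (0.0593) or with the mean of all kept probes (0.0507).

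Fibril assembly partners gave 9 measured genes, of which 0 rose and 2 fell with siTARBP2-1 and 0 rose and 1 fell with siTARBP2-2 (medians -0.03 and -0.18). Tnxb, the tenascin that binds fibrils in connective tissue, had log2 signals of 6.57, 6.49 and 6.67 on the controls, 5.94 with siTARBP2-1 and 5.70 with siTARBP2-2. It fell with both, by 0.64 on the log2 scale with siTARBP2-1 (limma, adjusted p = 0.0268) and by 0.88 on the log2 scale with siTARBP2-2 (limma, adjusted p = 0.0208); both calls ended without siControl-2 (0.0665 and 0.0626), the first also with the mean of all kept probes (0.0776), and without background correction the changes were -0.38 and -0.50. Thbs2, a thrombospondin that affects fibril shape, had 9.31, 8.98 and 8.94 on the controls, 8.28 with siTARBP2-1 and 9.20 with siTARBP2-2. Thbs2 fell with siTARBP2-1 (-0.80; limma, adjusted p = 0.0354) and differed between the siRNAs (-0.92; limma, adjusted p = 0.0446), and both calls ended without siControl-2 (0.0776 and 0.0809). Decorin (Dcn), a proteoglycan on fibrils, had 0.27 and 0.42 and did not pass.

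In the list of collagen breakdown and uptake, 13 genes were measured, with 2 higher and 1 lower with siTARBP2-1 and 1 higher and 0 lower with siTARBP2-2 (medians 0.03 and 0.10). Mmp13, a collagenase that cuts fibrillar collagen, had log2 signals of 5.45, 5.33 and 5.41 on the controls, 6.62 with siTARBP2-1 and 6.54 with siTARBP2-2. It rose with both, by 1.23 with siTARBP2-1 (limma, adjusted p = 0.00272) and by 1.14 with siTARBP2-2 (limma, adjusted p = 0.00999), and without background correction by 0.68 and 0.62. Timp3, a metalloproteinase inhibitor held in the matrix, had 10.31, 10.46 and 10.34 on the controls, 9.41 with siTARBP2-1 and 10.64 with siTARBP2-2. It fell with siTARBP2-1 (-0.96; limma, adjusted p = 0.00649) and differed between the siRNAs by -1.23 (limma, adjusted p = 0.00702). Ctsl, a lysosomal cysteine protease, had 9.62, 9.77 and 9.67 on the controls, 10.25 with siTARBP2-1 and 9.52 with siTARBP2-2. Its rise with siTARBP2-1 (0.56; limma, adjusted p = 0.0363) ended without siControl-2 (0.0848) or siControl-3 (0.0675) and with median scaling (0.115). Between the siRNAs Ctsl differed by 0.73 (limma, adjusted p = 0.0313), which ended with median scaling (0.081) and without siControl-2 (0.0711). Mmp2 and Mmp14, the gelatinase and the membrane collagenase of fibroblasts, had 0.01 and 0.03 with siTARBP2-1 and -0.26 and 0.30 with siTARBP2-2, without passing.

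Of 6 measured collagen receptors, 0 changed with either siRNA. Itga11, a collagen-binding integrin chain of fibroblasts, had log2 signals of 6.41, 6.47 and 6.08 on the controls, 5.65 with siTARBP2-1 and 5.76 with siTARBP2-2. Both siRNA arrays lay below the controls, with changes of -0.67 (limma, adjusted p = 0.0593) and -0.56 (limma, adjusted p = 0.111); without siControl-3 both passed (0.0178 and 0.0483), and the first under 5 other alternatives (0.0212 to 0.0423). Ddr1, a receptor tyrosine kinase for collagen, had -0.36 with siTARBP2-1, which passed under 3 alternatives (0.0292 to 0.0335), and -0.01 with siTARBP2-2.

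Of 19 measured genes of collagen transcription and the TGF-beta response, 0 rose and 1 fell with siTARBP2-1 and 0 changed with siTARBP2-2 (medians -0.12 and 0.03). Tgfb2, a TGF-beta ligand, had log2 signals of 7.61, 7.73 and 7.81 on the controls, 6.54 with siTARBP2-1 and 7.75 with siTARBP2-2. The siTARBP2-2 array lay inside the range of the controls. Tgfb2 fell by 1.18 on the log2 scale with siTARBP2-1 (SE 0.13; limma, adjusted p = 0.00405) and differed between the siRNAs by -1.21 (limma, adjusted p = 0.00934). Sox9, also a chondrocyte marker, had 6.06, 5.97 and 6.19 on the controls, 5.81 with siTARBP2-1 and 6.62 with siTARBP2-2. It differed between the siRNAs by -0.81 (limma, adjusted p = 0.0292), which ended without siControl-2 (0.0587). Against control it passed with neither here; with siTARBP2-2 it passed under 4 alternatives (limma, adjusted p = 0.0425 to 0.0454). The TGF-beta target Ccn2 had -0.08 and -0.04, and the collagen mRNA-binding protein gene Larp6 had 0.34 and 0.01.

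**Figure D4:**
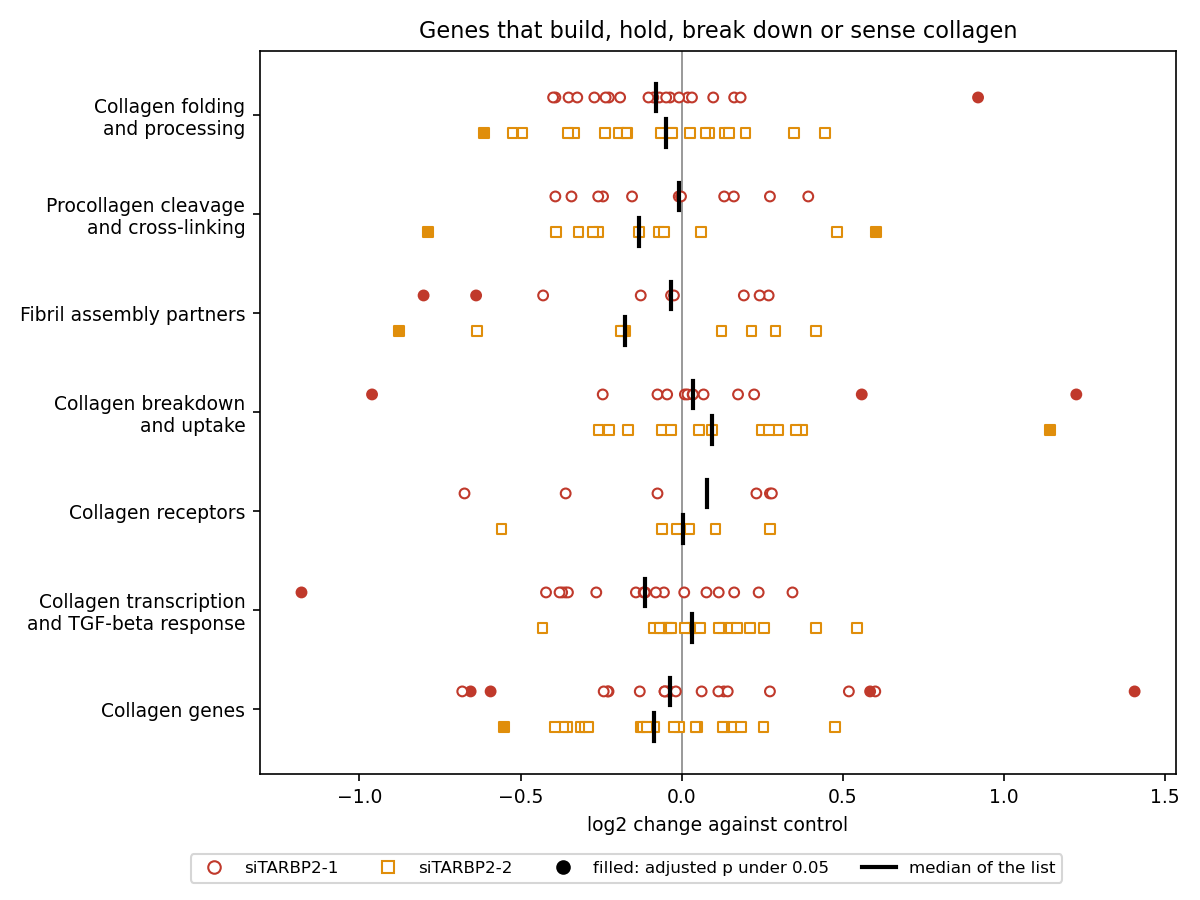
Log2 change against control (horizontal axis) of the measured genes of 6 lists and of the collagens (rows), with siTARBP2-1 as circles and siTARBP2-2 as squares; filled symbols have a limma adjusted p under 0.05 and black bars are list medians. Symbols of most genes are open and list medians lie between -0.18 and 0.10, while Mmp13 is filled at 1.23 and 1.14.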

How the data were processed

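Bead intensities and detection p-values for 25697 probes on 5 arrays were deposited without normalization, per the file headers. The submitters' processing notes name lumi; no version is stated there. For siTARBP2-2 the deposited detection p-values did not follow the signals (Spearman correlation 0.000598, against -0.961 to -0.967 on the other arrays) so each was set to the average, at that signal rank, over the remaining 4 arrays, chosen with the values in view. Normalized intensities in the authors' series matrix served as an alternative. The authors' deposited table gives a log2 fold change per RefSeq accession and a score of 1 for accessions marked as higher.

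The neqc function (limma 3.58.1, R 4.3.3) corrected background and normalized by quantiles (offset 16, negative controls inferred from detection p-values) on the log2 scale. A probe was kept if its detection p was under 0.05 on 2 or more arrays (13123 probes). The platform annotation gave 23978 probes 1 symbol, 0 several and 1719 none; RefSeq names (GRCm38.p6) changed 0 symbols. A gene was represented by its probe with the highest mean. Groups were compared with lmFit and eBayes (two-sided), in a fit of both siRNAs (2 arrays against 3) and a fit with a coefficient for each siRNA. The fits were also run on simulated data, in which every array had a spread derived from the controls. Such data could not test whether a lone siRNA array varies like the controls. Named genes were all measured collagens and, from each list, those called in any comparison (at most 6) or else those with the 2 largest changes; Serpinh1, P4ha1, Dcn, Mmp2, Mmp14, Ccn2 and Larp6 were added after their values were seen. The members and lists were chosen with earlier results of these data known. Same-numbered arrays of the groups did not deviate together (correlations -0.0486 and -0.0267). The number of arrays limits the precision.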

Additional observations from a re-analysis of the deposited data

Results flagged for a closer look

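The 8 results below are differences between the siRNAs, siTARBP2-1 minus siTARBP2-2, that passed limma's test of the difference itself (adjusted p under 0.05), on 1 array of each siRNA, so with no replicate of either. Among the collagens these were Col10a1 (1.71) and Col3a1 (-0.72). Col10a1 was above the controls with siTARBP2-1 and below them with siTARBP2-2, and Col3a1 the other way round. Among matrix-related genes lower with siTARBP2-1 than with siTARBP2-2 were Timp3 (-1.23), Tgfb2 (-1.21), Thbs2 (-0.92), Pcolce2 (-0.85) and Sox9 (-0.81), and Ctsl was higher (0.73). The interferon response list also differed between these arrays, by a median of 2.02, and its part in these differences was not tested.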

How the results depend on the processing

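Of the 25 changes called for the named genes, 0 reversed in sign under any alternative, but most calls ended under at least 1. The alternatives reuse the same arrays, so a reversed sign was unlikely beforehand. The calls of Col10a1, Mmp13, Timp3 and Tgfb2, and that of Pcolce2 between the siRNAs, held throughout. With no background correction, normexp with an offset of 50 or the series matrix values, 7 collagens were called with siTARBP2-1 in place of 4, 2 with siTARBP2-2 in place of 1 and 3 between the siRNAs in place of 2, and calls in the pathway lists rose from 18 to 40. The share of all genes called rose too in these settings, from 7.65% to 13.7% with siTARBP2-1, from 4.27% to 10.7% with siTARBP2-2 and from 7.08% to 14 to 14.2% between the siRNAs. With siTARBP2-2, 2 of 15 measured collagens were called for probes detected on all 5 arrays, beside 7.24% of all genes. With that siRNA 0 of 21 were called with median scaling, beside 5.19%, and 0 of 37 with no filter, beside 0.5%. With no filter the pathway lists had 9 calls. With median scaling the median of all genes with siTARBP2-1 was -0.12 in place of -0.01; there 1 collagen was higher and 3 lower, in place of 2 and 2, and all genes split into 248 higher and 571 lower, in place of 346 and 337. With it the collagen median between the siRNAs was -0.04 in place of 0.10. Leaving out 1 array gave 1 to 6 collagen calls with siTARBP2-1, 0 to 2 with siTARBP2-2 and 1 to 2 between the siRNAs. Over both siRNAs, 0 collagens and 0 of all genes were called without each control array. When 1 siRNA array is left out, that fit is the other's own comparison. With siTARBP2-1 and between the siRNAs, only the Col10a1 calls remained among the collagens without siControl-2. The share of all genes called moved too. With each siRNA and between them, it was lowest without siControl-2 and highest without siControl-1, so this dependence was not particular to collagens. With the replicate number as a block, 0 collagens were called over both siRNAs, as without it, and all genes had 0 calls in place of 1; the fit of each siRNA holds 1 array a number, so no paired analysis of it was possible. Dim genes are limited by signal over background. The cause of these changes was not tested.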
